A study of Homo sapiens with 4 samples.

Results

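Ribosome biogenesis and nucleolar genes were examined in 4 RNA sequencing libraries of the human glioblastoma (GBM) cell lines U251 and U87. The list held 42 named genes of the 58735 genes in the files, taken by gene name and sorted by role into RNA polymerase I transcription (7 genes), box C/D snoRNPs (3), box H/ACA snoRNPs (4), nucleolar scaffold proteins and regulators (7), small subunit processing (12) and large subunit processing (9). Values were FPKM (fragments scaled by gene length and library size), so levels could be compared between genes per length. Between libraries the comparison depends on the library size used. The size inside FPKM was not the total of the counted reads, and some counts below changed with the scaling. Of the 42 genes, 41 had a mean of at least 1 FPKM over the 4 libraries, as did 12949 genes in all. NOP2, which methylates large subunit rRNA, was the exception. It was at 0.305 FPKM (Control) and 0.368 (Bru) in U251 and at 0.272 and 0.368 in U87, from 23 to 32 reads. The gene AC006064.6 covers 54.4% of the exonic bases of NOP2 on the same strand and had no reads in any library. How reads that fit both genes were counted was not given, and the part of this overlap in the low NOP2 values was not tested.

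Brusatol (Bru), a plant quassinoid, had been given to the treated cells at each line's IC50 for 48 h, and Control cells had received no Bru. U251 and U87 are established GBM lines, so each stands for 1 tumour of origin grown in culture. Each line had 1 Control and 1 Bru library, so no value below has a replicate error and no p-value was computed. The 95% intervals (exact Clopper-Pearson) come from the read counts behind each FPKM value and cover counting error only, not the variation between cultures. The study's question for this comparison was which transcripts Bru altered in GBM cells.

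The libraries held 17083896 to 21453561 counted reads, and every compared gene of the list had at least 211 reads in each. Of the GBM markers, VIM lay between 606 and 701 FPKM and CD44 between 94.5 and 125 FPKM in all 4 libraries. NES was at 125 FPKM in U251 Control and 50.6 in U251 Bru but at 1.46 and 0.569 in U87, and SOX2 was at 129 and 91.2 FPKM in U251 but at 0 and 0.0457 in U87, so these 2 neural progenitor markers were near 0 in U87. GFAP lay between 0.147 and 2.42 FPKM, S100B was at 0.296 FPKM in U251 Control and at 0 in the other 3 libraries, and the leukocyte, endothelial, epithelial and myelin markers PTPRC, CD68, PECAM1, EPCAM and MBP were at or below 0.506 FPKM everywhere. Mitochondrially encoded genes took 2.43% to 4.06% of the reads.

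Ribosomes are built in the nucleolus, where RNA polymerase I transcribes one long precursor that is cut into the 18S, 5.8S and 28S rRNAs. Small nucleolar ribonucleoproteins (snoRNPs) guide 2'-O-methylation (box C/D) and pseudouridylation (box H/ACA) of this precursor, and large assemblies of helicases, nucleases, GTPases and scaffold proteins fold and cleave it into the small and the large subunit. The pathway consumes much of a growing cell's transcription and is a known target of the MYC transcription factor.

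In U251, all 41 compared genes had more FPKM in the Bru library than in the Control library, against 47.2% of the 12949 genes compared, and none had less (52.1%). Their median log2 ratio of Bru to Control (computed on FPKM + 0.1) was 0.47, a 1.38-fold difference, with a range from 0.02 to 1.46, whereas the median of all genes was -0.03. The counting interval lay above 0 for 39 of the 41 genes (30.9% of all genes) and below 0 for none (35.9% of all genes), and it held 0 for UBTF and TCOF1. 10 genes were higher past 1.5-fold (11.3% of all genes) and none was lower past it (15.6%), and 4 were higher past 2-fold (3.36%) and none lower (5.44%). The genes past 2-fold were RRN3, RRP9, PNO1 and PES1, which belong to 3 of the 6 roles.

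Together the 42 genes took 0.586% of all U251 Control reads and 0.848% with Bru. In U87 the shares were 0.680% in Control and 0.757% in Bru, so both Bru libraries were above their Control and the gap was wider in U251. The summed FPKM of the list was 1519 (Control) and 2096 (Bru) in U251 and 1736 and 1883 in U87. More transcript per cell and less of the other transcripts cannot be told apart in such shares.

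**Figure D1:**
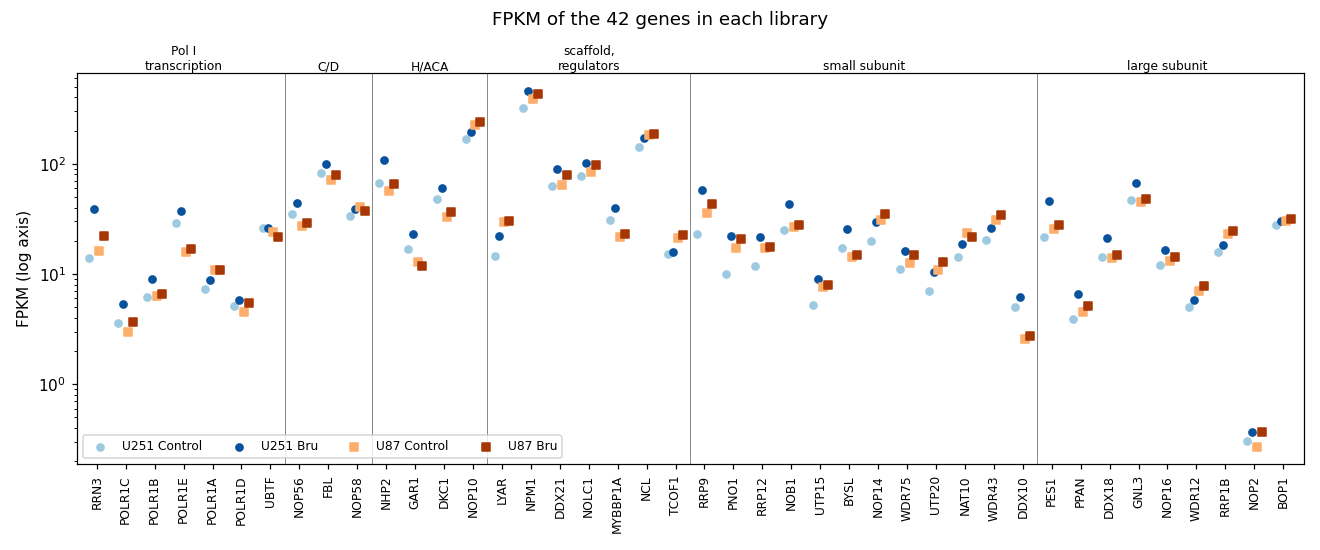
FPKM on a log axis for each of the 42 genes, grouped by role and ordered within a role by the U251 ratio, with 1 point per library (circles U251, squares U87, light Control, dark Bru). Levels ran from NPM1, at 318 to 457 FPKM, down to NOP2, under 0.37 FPKM, and the dark circle of U251 Bru lay above the light circle of U251 Control for every gene.

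Among the RNA polymerase I genes, RRN3 had the largest ratio of the list in both lines. RRN3 encodes the initiation factor that makes the polymerase competent to start at the rRNA gene promoter, and its gene lies at chr16:15060022-15094317 (minus strand, GRCh38). It was at 13.9 FPKM (Control) and 38.5 (Bru) in U251 and at 16.3 and 22.3 in U87. In U251 the log2 ratio was 1.46 (interval 1.37 to 1.57), and in U87 it was 0.45 (0.34 to 0.56), so each Bru library was above its Control and the interval of U251 lay wholly above that of U87. Of the 50-base stretches of RRN3 transcripts, 24.98% were shared with other genes, chiefly copies of RRN3. The copy RRN3P1 was at 0.708 FPKM in U251 Control and 1.66 in U251 Bru and below 0.05 in U87, RRN3P3 lay between 1.01 and 1.69 FPKM, and RRN3P2 had no reads. How reads that fit several copies were counted was not given in the sources used here, and their part in the RRN3 ratio was not tested.

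UBTF, which binds along the rRNA genes and keeps them open, differed least in U251. It was at 26.04 FPKM (Control) and 26.4 (Bru) in U251 and at 23.9 and 21.8 in U87. The ratio on the log2 scale was 0.02 (-0.05 to 0.09) for U251 and -0.13 (-0.21 to -0.05) for U87, the lowest of the list in U251 and, with NOP58, in U87. UBTF and RRN3, which act at the same promoter, therefore stood at opposite ends of the list.

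The polymerase subunits lay between these 2 factors in U251. POLR1E was at 28.8, 37.5, 15.9 and 16.8 FPKM (Control and Bru of U251, then of U87, the order of all later sets of 4 values). POLR1A, the largest catalytic subunit, was at 7.32, 8.84, 10.9 and 10.9 FPKM in the same order, and POLR1B, the second largest, at 6.25, 8.92, 6.36 and 6.64. Their U251 log2 ratios were 0.38, 0.27 and 0.51 and their U87 log2 ratios 0.08, -0.004 and 0.06, and the U87 intervals of all 3 held 0. POLR1C and POLR1D, which RNA polymerase I shares with RNA polymerase III, were the subunits whose U87 interval lay above 0. POLR1C was at 3.56, 5.37, 2.95 and 3.64 FPKM and had log2 ratios of 0.58 (0.41 to 0.78) in U251 and 0.29 (0.08 to 0.53) in U87. POLR1D was at 5.12, 5.80, 4.57 and 5.42 FPKM, with log2 ratios of 0.18 (0.06 to 0.30) and 0.24 (0.12 to 0.38), which made it one of 2 genes of the list whose ratio was larger in U87 than in U251.

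The box C/D core proteins were abundant and differed little. FBL, the 2'-O-methyltransferase, was at 82.5 FPKM (Control) and 98.9 (Bru) in U251 and at 71.9 and 79.1 in U87. Its log2 ratios were 0.26 (0.20 to 0.33) and 0.14 (0.06 to 0.21). NOP56 was at 35.0, 43.9, 27.5 and 29.2 FPKM in the same order, with log2 ratios of 0.33 and 0.09. NOP58, the partner of NOP56 on the snoRNA, was at 33.6, 38.9, 40.4 and 36.9 FPKM. In U251 the log2 ratio was 0.21 (0.13 to 0.30), and in U87 it was -0.13 (-0.21 to -0.04). At the deposited scaling the counting intervals thus excluded 0 in opposite directions in the 2 lines.

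Of the box H/ACA proteins, which also belong to telomerase, NHP2 had the largest U251 ratio. NHP2 (chr5:178149460-178153967, minus strand) was at 66.7 FPKM (Control) and 108 (Bru) in U251 and at 56.7 and 65.0 in U87. The ratio on the log2 scale was 0.69 (0.61 to 0.78) for U251 and 0.20 (0.10 to 0.30) for U87. Exons of RMND5B on the opposite strand cover 27.4% of its exonic bases, and RMND5B went the other way in U251, from 8.03 to 5.43 FPKM. DKC1, the pseudouridine synthase, was at 47.96, 60.1, 33.1 and 36.9 FPKM, and NOP10 was at 167, 194, 227 and 237 FPKM, with U251 log2 ratios of 0.33 and 0.22. GAR1 was at 17.01, 23.0, 12.8 and 11.7 FPKM, with a log2 ratio of 0.44 (0.30 to 0.58) in U251 and -0.12 (-0.32 to 0.07) in U87, where the interval held 0. All 4 proteins sit in the same particle, and their U251 ratios ran from 0.22 to 0.69.

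The scaffold and regulator genes had the largest summed FPKM of the 6 roles, at 660 (Control) and 897 (Bru) in U251 and 793 and 871 in U87, of which NPM1 and NCL made up most. NPM1, the main protein of the nucleolar granular component, was at 318 FPKM (Control) and 457 (Bru) in U251 and at 390 and 432 in U87. With at least 25493 reads per library its log2 ratio was 0.53 (0.50 to 0.55) in U251 and 0.15 (0.12 to 0.17) in U87. Of its 50-base stretches, 18.9% occur in other genes, and its pseudogene NPM1P27 was listed at 33.0, 49.5, 38.2 and 45.3 FPKM, with log2 ratios of 0.59 and 0.24. NCL, which binds nascent rRNA, was at 141, 173, 182 and 188 FPKM, with log2 ratios of 0.30 (0.27 to 0.33) and 0.05 (0.02 to 0.07).

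DDX21, an RNA helicase that couples polymerase I transcription to processing, was at 63.0, 88.9, 64.5 and 78.6 FPKM, with log2 ratios of 0.50 (0.45 to 0.54) and 0.29 (0.24 to 0.34). NOLC1, a chaperone of snoRNPs, was at 77.8, 101, 83.3 and 97.2 FPKM, with log2 ratios of 0.37 and 0.22. These were the 2 largest U87 ratios among the scaffold genes. MYBBP1A was at 31.1, 39.5, 21.6 and 22.8 FPKM, and its U87 interval held 0.

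LYAR, a nucleolar zinc finger protein (chr4:4267701-4290169, minus strand), was at 14.7, 22.3, 29.3 and 30.4 FPKM. In U251 the log2 ratio was 0.60 (0.46 to 0.74), and in U87 it was 0.05 (-0.06 to 0.17). TCOF1, the treacle protein that recruits polymerase I factors, was at 15.3, 15.7, 21.4 and 22.3 FPKM. Its U251 log2 ratio of 0.04 (-0.03 to 0.11) was the second smallest of the list after UBTF, and both proteins work at the rRNA gene.

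Small subunit processing was the role with the largest median in U251, 0.57 on the log2 scale, and it held 5 of the 10 genes past 1.5-fold. RRP9, the protein particular to the U3 snoRNP that directs the first cleavages, lies at chr3:51933430-51941941 (minus strand). It was at 23.1 FPKM (Control) and 58.0 (Bru) in U251 and at 36.1 and 42.7 in U87. The ratio on the log2 scale was 1.32 (1.20 to 1.45) for U251 and 0.24 (0.12 to 0.37) for U87. No exon of another gene overlaps RRP9 and none of its 50-base stretches occurs elsewhere, and its U251 Bru level was 2.50-fold that of Control.

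PNO1 and NOB1 act together in the last step of 18S rRNA formation, in which the nuclease NOB1 cuts the 3' end and PNO1 holds the site. PNO1 (chr2:68157844-68176238, plus strand) was at 10.1 FPKM (Control) and 21.95 (Bru) in U251 and at 17.3 and 20.6 in U87, with log2 ratios of 1.11 (0.97 to 1.27) and 0.25 (0.12 to 0.39). NOB1 (chr16:69741867-69754940, minus strand) was at 25.3, 43.5, 26.7 and 27.98 FPKM, with log2 ratios of 0.78 (0.67 to 0.89) and 0.07 (-0.06 to 0.20). Both were past 1.5-fold in U251. An antisense gene, AC092115.3, covers 20.2% of the exonic bases of NOB1 and was at 0.886, 1.82, 0.935 and 1.36 FPKM. The gene that covers 10.4% of PNO1 (AC017083.3) had no reads. How reads that fit both genes were counted was not given, so the lack of reads does not show that AC017083.3 was silent.

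RRP12, an export factor of the small subunit precursor (chr10:97356358-97426076, minus strand), was at 11.8, 21.9, 17.1 and 17.7 FPKM. In U251 the log2 ratio was 0.88 (0.81 to 0.97), and in U87 it was 0.05 (-0.02 to 0.13). UTP15 (chr5:73565443-73583377, plus strand), WDR43 and WDR75 are subunits of the complex that first binds the rRNA precursor. UTP15 was at 5.23, 8.93, 7.65 and 7.94 FPKM, with log2 ratios of 0.76 (0.63 to 0.91) and 0.05 (-0.08 to 0.19). WDR75 was at 11.03, 16.3, 12.5 and 14.7 FPKM and WDR43 at 20.3, 26.4, 30.98 and 34.6, with U251 log2 ratios of 0.56 and 0.37. In U87 the order was another, with log2 ratios of 0.24 for WDR75 and 0.16 for WDR43, both above UTP15.

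The other small subunit genes had U251 log2 ratios from 0.28 to 0.58. BYSL, UTP20 and NOP14 lay just under the 1.5-fold line. BYSL was at 17.3, 25.8, 14.2 and 14.8 FPKM, UTP20, a large scaffold protein, at 6.99, 10.3, 10.8 and 12.8, and NOP14 at 19.98, 29.6, 30.6 and 35.0. DDX10, an RNA helicase, was the least expressed of this role in U87, with 5.07, 6.18, 2.55 and 2.73 FPKM. NAT10, which acetylates 18S rRNA, was at 14.3 FPKM (Control) and 18.6 (Bru) in U251 and at 23.5 and 21.8 in U87. The ratio on the log2 scale was 0.38 (0.28 to 0.48) for U251 and -0.10 (-0.19 to -0.02) for U87. With NOP58 it was one of the 2 genes whose intervals excluded 0 in opposite directions at the deposited scaling.

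In large subunit processing, members of a single complex differed among themselves. PES1, BOP1 and WDR12 form the PeBoW complex, which is needed to mature the 28S and 5.8S rRNAs. PES1 (chr22:30576625-30607083, minus strand) was at 21.7 FPKM (Control) and 46.1 (Bru) in U251 and at 25.6 and 27.7 in U87. BOP1 was at 27.9, 30.4, 30.4 and 31.7 FPKM, and WDR12 at 4.999, 5.87, 6.94 and 7.74. The U251 log2 ratio was 1.08 (1.01 to 1.17) for PES1, 0.12 (0.03 to 0.21) for BOP1 and 0.23 (0.10 to 0.36) for WDR12, so the interval of PES1 lay above those of its partners. In U87 the ratios were 0.11 (0.03 to 0.20), 0.06 (-0.03 to 0.15) and 0.16 (0.04 to 0.28), and the intervals overlapped.

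GNL3 (nucleostemin), a nucleolar GTPase, was the most abundant large subunit gene, at 47.1, 67.5, 44.8 and 48.4 FPKM, with log2 ratios of 0.52 (0.45 to 0.59) and 0.11 (0.03 to 0.19). DDX18, an RNA helicase, was at 14.3, 21.1, 13.8 and 14.8 FPKM, and NOP16 at 11.9, 16.5, 13.1 and 14.4, with U251 log2 ratios of 0.56 and 0.47. RRP1B was at 15.7, 18.2, 23.1 and 24.6 FPKM, with log2 ratios of 0.21 and 0.09. PPAN (chr19:10106289-10111634, plus strand) was at 3.91, 6.56, 4.52 and 5.16 FPKM, with log2 ratios of 0.73 (0.49 to 1.003) and 0.19 (-0.08 to 0.47). Its intervals were the widest, from 211 to 314 reads. The readthrough gene PPAN-P2RY11 and P2RY11 together cover 59.8% of its exonic bases on the same strand. P2RY11 was at 5.78, 8.56, 7.31 and 8.54 FPKM. PPAN-P2RY11 had no reads in any library, which for the same reason as in PNO1 does not show that it was silent.

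**Figure D2:**
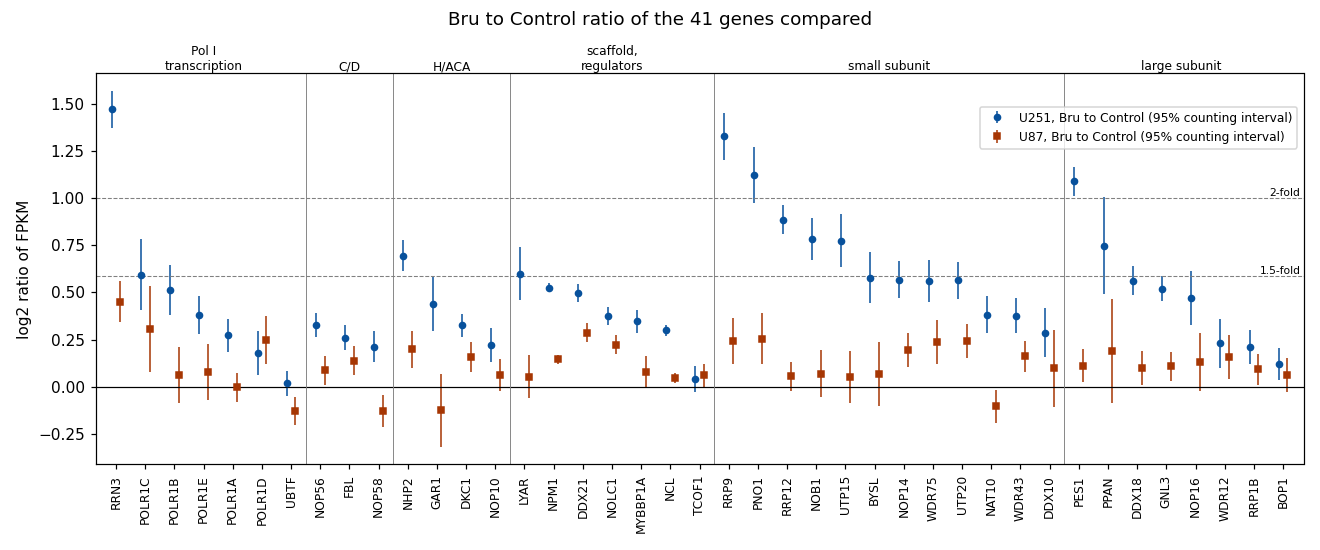
Log2 ratio of FPKM, Bru to Control, for the 41 compared genes in U251 (blue circles) and U87 (brown squares), with 95% counting intervals as bars and dashed lines at 1.5-fold and 2-fold. In U251 every point lay above 0 and 4 lay above 2-fold, whereas in U87 no point reached 1.5-fold. These ratios carry no pseudocount, and POLR1C, at 0.59 here against 0.58 with it, lies just over the 1.5-fold line in U251.

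The 10 genes past 1.5-fold in U251 were thus RRN3, RRP9, PNO1, PES1, RRP12, NOB1, UTP15, PPAN, NHP2 and LYAR. A further 6 genes (POLR1C, BYSL, NOP14, DDX18, WDR75 and UTP20) had U251 log2 ratios between 0.55 and the line at 0.58, so the count depended on the scaling of the libraries. It was 16 when FPKM was rescaled to TPM, 18 without mitochondrially encoded genes and 19 at equal 75th percentiles. The U251 median of all genes moved as well, from -0.028 to -0.002, 0.039 and 0.047 in the same order. The share of all genes past 1.5-fold was not computed under these scalings, so these counts have no background share. 5 of the 10, RRN3, PNO1, NOB1, PPAN and NHP2, have over 10% of their exonic bases in exons of another gene or of their 50-base stretches in other transcripts. Among the 32 compared genes under both limits, 5 were past 1.5-fold (11.3% of all genes) and 2 (RRP9 and PES1) past 2-fold (3.36%), with a median of 0.37. The fold counts of these 32 genes thus lay nearer the shares of all genes than those of the 41.

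Other genes of the list share exonic bases with genes on the opposite strand, and the strand setting of the counting was not given in the sources used here. Without strand, reads from such a pair cannot be told apart. POLR1C overlaps YIPF3, XPO5 and others by 18.2% of its exonic bases, NOP14 overlaps its antisense gene NOP14-AS1 by 17.1% and NOP16 overlaps ARL10 and HIGD2A by 19.95%. NOP14-AS1 lay between 2.07 and 2.35 FPKM. PES1 overlaps TCN2 by 5.40%, and TCN2 was at 7.07, 3.59, 1.51 and 0.975 FPKM, lower with Bru in both lines. UTP15 overlaps ANKRA2 by 3.86%, and ANKRA2 was at 8.23, 8.58, 4.33 and 5.83 FPKM.

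In U87 the list was higher by less. Its median log2 ratio was 0.10, a 1.07-fold difference, with a range from -0.13 to 0.45, against a median of -0.04 for all genes. 36 genes were above 0 (42.3% of all genes) and 5 below it (56.7%), namely UBTF, NOP58, GAR1, NAT10 and POLR1A. The counting interval lay above 0 for 23 genes (15.7% of all genes), below 0 for 3 (28% of all genes) and held 0 for 15. No gene was past 1.5-fold in either direction, where 4.56% of all genes were higher and 4.49% lower, so none was past 2-fold (1.92% and 1.41%). At the fold lines the list therefore had no more than the background share in U87, and the difference showed in the sign and the counting intervals.

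The role medians kept a narrow spread in U87, from 0.08 for polymerase I transcription and for the scaffold genes to 0.13 for small subunit processing. In U251 they were 0.38 for polymerase I transcription, 0.26 for box C/D, 0.38 for box H/ACA, 0.37 for the scaffold genes, 0.57 for small subunit and 0.49 for large subunit processing. Each role had a higher median in U251 than in U87.

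In both lines 36 of the 41 genes were higher with Bru, against 28.1% of all genes, and for 22 genes (10.1% of all genes) the counting intervals lay above 0 in both lines. The U251 ratio exceeded the U87 ratio for 39 of 41 genes (50.9% of all genes), the other 2 being POLR1D and TCOF1. The difference of the log2 ratios, U251 minus U87, had a median of 0.32 and a range from -0.07 to 1.08, against a median of 0.01 over all genes. Its exact conditional interval from the 4 read counts lay above 0 for 34 genes and below 0 for none. By a normal approximation, which could be run for all genes, it lay above 0 for 35 genes of the list and 26.3% of all genes, and below 0 for none of the list and 24.6% of all genes.

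The largest differences belonged to RRP9 with 1.08 (0.91 to 1.26), RRN3 with 1.02 (0.87 to 1.17) and PES1 with 0.97 (0.86 to 1.09). 11 genes differed by more than 0.5 (13.7% of all genes). Of the 10 genes past 1.5-fold in U251, 5 (RRN3, RRP9, PNO1, PES1 and NHP2) had a U87 interval above 0, and the U87 intervals of RRP12, NOB1, UTP15, PPAN and LYAR held 0. Over the 41 genes the U251 and U87 ratios had a Pearson correlation of 0.51 and a Spearman correlation of 0.37, as a description over genes that share the same 4 libraries. Over all genes these were 0.23 and 0.40. The U251 ratios had a Spearman correlation of -0.10 with mean FPKM and of -0.33 with gene length over the 41 genes, and of -0.01 and -0.11 over all genes.

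**Figure D3:**
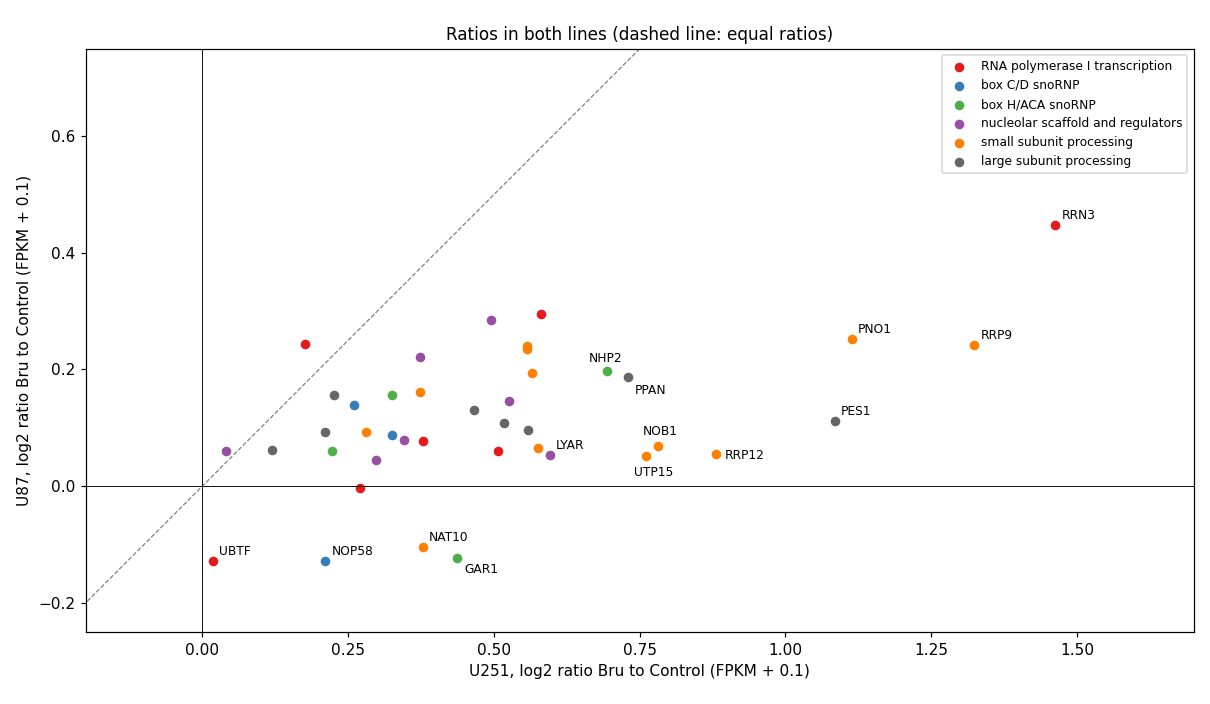
Log2 ratio of Bru to Control (FPKM + 0.1) in U251 on the x axis and in U87 on the y axis, 1 point per gene, coloured by role, with a dashed line where both ratios are equal. 39 of the 41 points lay below the dashed line, RRN3 lay farthest to the right and highest, and UBTF, NOP58, NAT10, GAR1 and POLR1A lay below 0 on the y axis.

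The same direction was seen in a second list of 134 further ribosome biogenesis genes, of which 131 were compared (DDX47, NOL12 and PWP2 were under 1 FPKM on average). In U251 their median was 0.44 on the log2 scale, and in U87 it was 0.09. In U251, 120 were above 0 (47.2% of all genes), 46 were higher past 1.5-fold (11.3%), none was lower past it (15.6%), and 6 were past 2-fold (3.36% of all genes; WDR74, RPF2, NIFK, RIOK2, RSL1D1 and NSUN5). In U87, 102 were above 0 (42.3% of all genes) and 1 of the 131, ZCCHC4, was higher past 1.5-fold, a share below the 4.56% of all genes. Of the 10851 protein-coding genes compared, 144 were.

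The 5 with the largest mean ratio over both lines were WDR74, ZCCHC4, RPF2, RSL1D1 and NIFK. WDR74, a large subunit factor, was at 4.50 FPKM (Control) and 12.9 (Bru) in U251 and at 9.66 and 12.9 in U87, with log2 ratios of 1.498 (1.35 to 1.69) and 0.41 (0.28 to 0.56). ZCCHC4, which methylates 28S rRNA, was at 3.37, 6.50, 5.47 and 8.42 FPKM, with log2 ratios of 0.93 and 0.61. RPF2, which brings the 5S particle into the large subunit, was at 12.8, 30.2, 18.8 and 21.4 FPKM, RSL1D1 at 22.3, 48.2, 45.8 and 55.8, and NIFK, which binds the Ki-67 protein, at 14.6, 33.8, 20.9 and 22.3. As for RRN3 and RRP9, the lowest value of each was the U251 Control library. These genes were picked by their ratios of Bru to Control, and such a pick favours low Control values.

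The ribosomal proteins, which these factors assemble, were compared as well. Of 88 cytosolic ribosomal protein genes, taken by name, 84 were compared, and their medians were 0.69 in U251 and 0.32 in U87. The name rule also admits ribosomal protein-like genes, whose names carry an added L, and these were not set apart. In U251, 54 of the 84 were higher past 1.5-fold (11.3% of all genes). In U87, 6 of the 84 were, against 4.56% of all genes and 144 of the 10851 protein-coding genes compared. Both medians exceeded those of the nucleolar list. In broad gene sets bounded by level, length or biotype, with no gene chosen by function, the medians stayed near 0. They were -0.03 in U251 and -0.05 in U87 for the 8427 genes within the list's range of mean FPKM. For the 5418 genes between its length quartiles they were -0.02 and -0.05, and for all 10851 protein-coding genes compared -0.04 and -0.05. Each set holds a large part of the 12949 genes compared and was not matched to the list gene by gene. The median level was 24.2 FPKM in the list and 6.63 over all genes, and the part of level, length or biotype in the ratios was not tested.

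**Figure D4:**
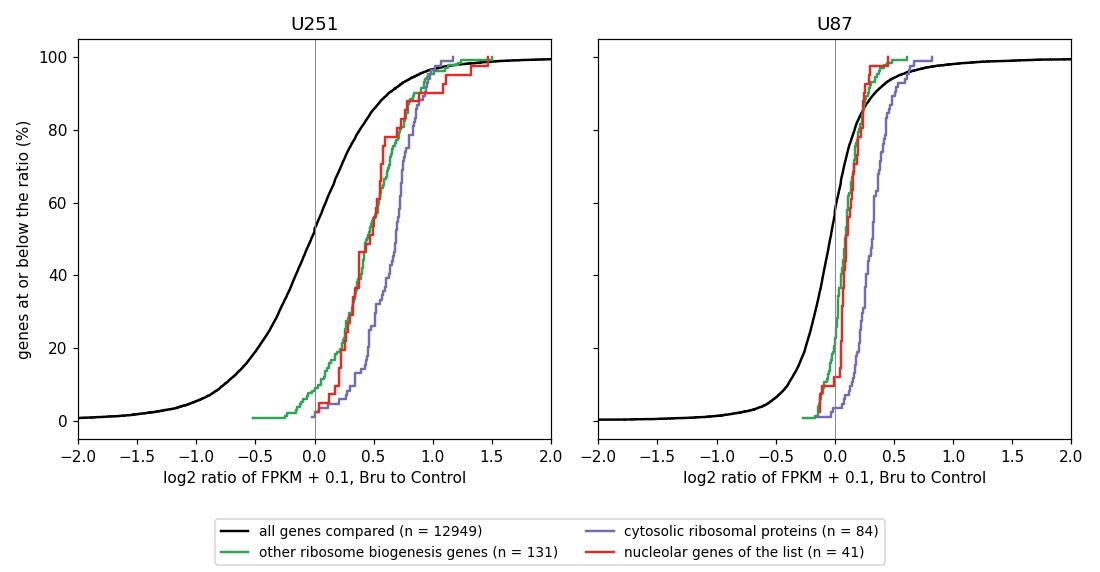
Share of genes (%) at or below each log2 ratio of Bru to Control (FPKM + 0.1) in U251 (left) and U87 (right), for all compared genes (black), the nucleolar list (red), the second list of ribosome biogenesis genes (green) and cytosolic ribosomal proteins (purple). The red and green curves ran together to the right of the black curve, with medians of 0.47 and 0.44 in U251 and 0.10 and 0.09 in U87, and the purple curve lay farther right.

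The sequence CACGTG, the E-box to which MYC with MAX binds, was searched in the RefSeq promoters of the list (GRCh38.p14, 250 bases before to 50 after the start), since most of these genes were higher together and MYC is known to act on the pathway. 34 of the 42 genes had a promoter entry, in 44 entries, and RRP1B, DDX18, POLR1E, TCOF1, BOP1, NOLC1, RRP12 and NOP58 had none. CACGTG, which reads the same on both strands, was present for 16 of the 34 genes (47.1%), against 8.77% of the 27305 genes in the promoter table, 13.0% of the 8979 compared genes in it and 27.2% of 114 genes of the second list. The windows of 30 bases below are shown for genes past 1.5-fold in U251 that hold the sequence, for NAT10, whose ratios had opposite signs, and for GNL3, the most abundant gene of its role. CACGTG is in capitals.
RRP9: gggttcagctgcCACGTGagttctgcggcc
PNO1: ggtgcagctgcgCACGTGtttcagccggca
PES1: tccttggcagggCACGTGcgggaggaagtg
LYAR: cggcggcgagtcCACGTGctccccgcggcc
NAT10: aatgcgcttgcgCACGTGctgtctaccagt
GNL3: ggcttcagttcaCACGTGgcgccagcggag

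These windows lie at chr3:51941892-51941921 (minus strand) for RRP9, chr2:68157885-68157914 (plus) for PNO1, chr22:30591880-30591909 (minus) for PES1, chr4:4290068-4290097 (minus) for LYAR, chr11:34105602-34105631 (plus) for NAT10 and chr3:52686026-52686055 (plus) for GNL3. Counted from 1 at the start, with negative positions before it, the first base of CACGTG was at -5 in RRP9, 10 in PNO1, 14 in PES1, -64 in LYAR, -15 in NAT10 and 7 in GNL3. The promoter entries of RRN3, NHP2, NOB1, UTP15 and PPAN did not hold these letters. Among the compared genes with a promoter entry, the 15 with CACGTG had a U251 median of 0.52 and a U87 median of 0.11 on the log2 scale, and the 18 without it 0.49 and 0.14. Of the 4 genes past 2-fold in U251, RRP9, PNO1 and PES1 held it and RRN3 did not. Whether the sequence had a part in the ratios was not tested.

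2 further sequences were counted on both strands. CCGGAAG, an ETS factor sequence, was present for 10 of the 34 genes (29.4%), against 12.2% of all genes in the table, 23.7% of the compared genes and 47.4% of the second list. The longer palindrome bound by BANP was present for 1 gene (2.94%), against 0.505% of all and 1.09% of the compared genes. None of the 3 sequences contains another. A match describes letters in a window and not binding.

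MYC itself was not higher. It was at 57.9 FPKM (Control) and 48.3 (Bru) in U251 and at 57.5 and 54.3 in U87. In U251 the log2 ratio was -0.26 (-0.33 to -0.19), and in U87 it was -0.08 (-0.16 to -0.01), so its transcript was lower with Bru in both lines. Intervals below 0 were found for 35.9% of all genes in U251 and 28% in U87. The U87 median of all genes was -0.04, and with that median set to 0 the U87 interval of MYC would hold 0. The MYC values are transcript levels only, and the part of MYC in the ratios of the list was not tested.

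The Control libraries were compared to see how the lines differed without Bru. The median log2 ratio of U87 Control to U251 Control over the 41 genes was 0.18, against -0.01 over all genes. 27 genes were above 0 (49.6% of all genes) and 14 below it (50.4%), and the counting interval lay above 0 for 22 (40.1%) and below it for 12 (40.9%). 7 genes were higher in U87 past 1.5-fold (25% of all genes) and 2 lower (26.8%), shares below those of all genes, and none was past 2-fold (14.5% and 16%). After rescaling to TPM the split was 3 higher and 4 lower. The genes past the line were LYAR at 0.99 (29.3 against 14.7 FPKM), PNO1 at 0.77, NAT10 at 0.71, RRP9 at 0.64, UTP20 at 0.62, NOP14 at 0.61 and WDR43 at 0.60 on the higher side, and DDX10 at -0.96 (2.55 against 5.07 FPKM) and POLR1E at -0.85 on the lower side.

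At the deposited scaling 6 of the 7 higher genes process the small subunit, whose median was 0.57, and the box H/ACA genes had a median of -0.32. In TPM only 3 genes of the list were higher past the line, so the count of 6 depends on the scaling. In RRP9, PNO1 and RRP12 the U251 Control library was the lowest of the 4 and U251 Bru lay above both U87 libraries. RRP12 is not among the 7 higher genes. For LYAR, NAT10, WDR43, UTP20 and NOP14, the rest of those 7, U251 Bru by contrast stayed below U87 Control. The U251 ratios of Bru to Control and the ratios between Controls share the U251 Control library.

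**Figure D5:**
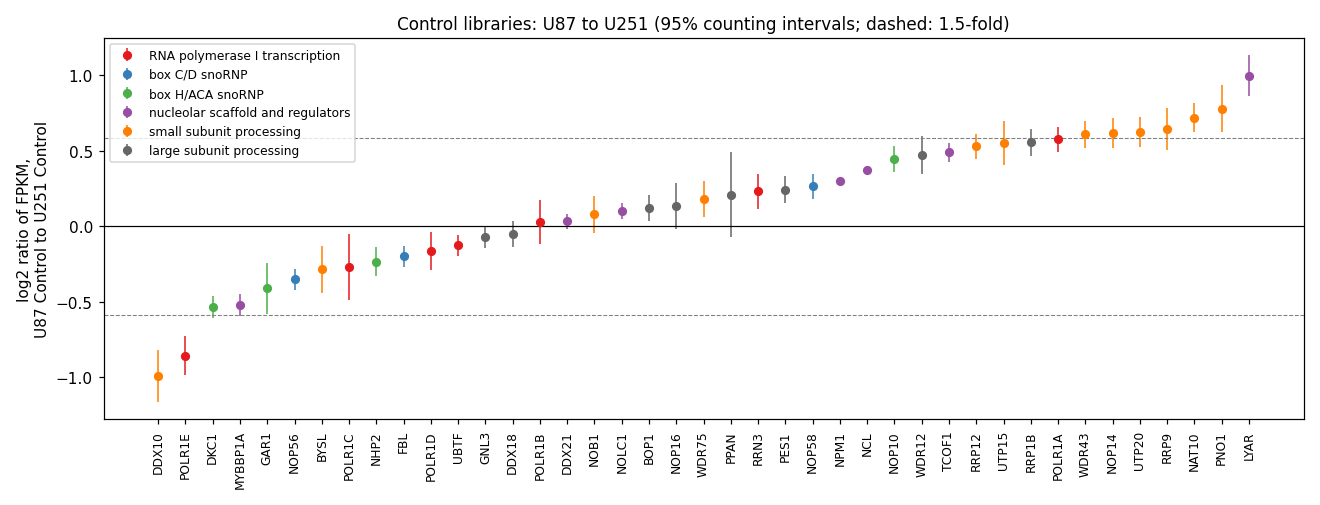
Log2 ratio of FPKM, U87 Control to U251 Control, for the 41 compared genes in ascending order, coloured by role, with 95% counting intervals as bars and dashed lines at 1.5-fold. DDX10 and POLR1E lay below the lower line, and LYAR and 6 small subunit genes above the upper one.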

How the data were processed

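The authors deposited FPKM per gene, 1 file per library, from NEB paired-end libraries of total RNA. The submitters' processing notes name HISAT2 2.0.5, StringTie 1.3.3b, featureCounts 1.5.0-p3, DESeq2 1.16.1 and the build hg18, with no role given. Gene coordinates in the files equal GENCODE 29 (GRCh38) for 58735 of 58735 genes, so GRCh38 is given here. FPKM times gene length gave whole reads in each library (100% of values, largest deviation 5.10e-05 reads), and these reads set the counting intervals. A library's 3 reads are worth 0.143 to 0.172 FPKM at 1 kb. Log2 ratios used a pseudocount of 0.1 and genes with a mean of at least 1 FPKM. With 1 library per condition no test was run. Overlaps came from GENCODE 29 exons and from 50-base stretches of its transcripts. Genes were sorted by role and named by fold lines, rank of the mean ratio, rank of level within a role and opposite intervals, and the other members were added by role. Members and lists were chosen with earlier results of these data known. Scripts (Python 3.11.15, pandas 2.3.3, scipy 1.17.1) were tested on simulated data.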

Additional observations from a re-analysis of the deposited data

Results flagged for a closer look

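NAT10 and NOP58 had ratios of opposite sign in the 2 lines. The log2 ratio of Bru to Control for NAT10 was 0.38 in U251 and -0.10 in U87, and that for NOP58 was 0.21 in U251 and -0.13 in U87. Each line had 1 library per condition, so the difference between lines was not tested beyond counting error. The upper limits in U87 were -0.02 for NAT10 and -0.04 for NOP58, and the U87 median of all genes was -0.04. With that median set to 0 the U87 interval of NAT10 would hold 0 and that of NOP58 would end just below 0. Both U87 ratios would stay negative. Whether the U87 interval of NAT10 excludes 0 therefore depends on the scaling, and that of NOP58 lies close to this limit. The intervals were not recomputed under the other scalings.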

How the results depend on the processing

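Each result was recomputed with pseudocounts of 1 and 0.01, 4 other scalings, no filter on low FPKM and a mean of at least 5 FPKM, and, added after the data were seen, with genes of little shared sequence and with reads scaled by their total. Of the 90 values, 84 stayed within the limits set for them, 6 moved and no median changed sign. The 9 genes past 1.5-fold between the Control libraries, 7 higher and 2 lower in U87 as reported, were 7 in TPM, 3 higher and 4 lower, so the larger side of that split turned. The genes past 1.5-fold in U251 were 10 as reported. They were 19 at equal 75th percentiles, 16 in TPM, 18 without mitochondrially encoded genes and 19 with reads scaled by their total. The share of all genes past the line, 11.3% as reported, was not recomputed under these scalings. Among the genes of little shared sequence 5 were past 1.5-fold (11.3% of all genes) and 2 rather than 4 past 2-fold (3.36%). The median log2 ratio ranged from 0.37 to 0.55 in U251 and from 0.08 to 0.15 in U87, and their difference from 0.27 to 0.37. The 0 genes past 1.5-fold in U87 held under every alternative. No paired analysis was possible because the groups compared within a line share only 1 replicate number, and a fit over both lines with the line as a block was not run. With 1 library per condition in each line, none could be left out. The reads limit single ratios to intervals that reach a median of 0.09 to either side on the log2 scale in each line, and variation between cultures is unknown.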

Other observations

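NSUN5, which methylates 28S rRNA, differed between the lines more than any gene of the nucleolar list. It was at 6.396 FPKM in U251 Control and 13.0 in U251 Bru, with a log2 ratio of 1.013 (0.86 to 1.19), and had 0 reads in both U87 libraries, where 3 reads would have been 0.0486 FPKM in Control and 0.0505 in Bru. PIH1D1, a snoRNP assembly factor, had the lowest U251 ratio of the second list and was at 28.7 FPKM (Control) and 20.01 (Bru) in U251 and at 6.91 and 6.92 in U87, with a U251 log2 ratio of -0.52 (-0.63 to -0.42). Both genes were picked after their values were seen.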
